A study of Mus musculus with 8 samples.

Results

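Smooth muscle and pericyte genes were followed here in whole mouse lung. The 10 genes were taken by name from the 54532 genes of the count table. The contractile genes were Acta2, Myh11, Tagln, Cnn1, Actg2, Des, Lmod1 and Mylk, and the pericyte genes were Pdgfrb and Cspg4. All 10 had enough counts to be among the 17138 genes tested. Together they held between 0.0681% and 0.194% of the counts of a library.

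The mice were CC-LR mice of 14 weeks of age, in which Cre from the club cell secretory protein locus switches on a mutant K-ras allele in the airway and lung epithelium, so that lung adenomas form. Both groups carried this genotype on a C57BL/6 background. The 4 mice of the TTI-101 group received TTI-101, a small-molecule inhibitor of the transcription factor STAT3, for 4 weeks, and the 4 mice of the Control group did not. The labels give neither the route of TTI-101, nor what the control mice received in its place, nor the sex of each mouse. RNA came from the whole lung of each mouse, with 1 poly(A) library per mouse, so tumors, airways and vessels were measured together. By design the allele is switched on in epithelium and not in smooth muscle or pericytes.

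Smooth muscle cells surround the airways and the larger vessels of the lung. They contract when calcium and calmodulin activate myosin light chain kinase, which phosphorylates the light chains of smooth muscle myosin and lets it pull on actin filaments. The genes of this apparatus are switched on by the factor SRF with its partners of the myocardin family, which bind CArG boxes in their promoters. Pericytes lie against the endothelium of capillaries, are recruited by PDGF-B from endothelial cells through the receptor PDGFRB, and carry the proteoglycan NG2, the product of Cspg4. In a whole-lung library, fewer cells of a type and less RNA per cell cannot be told apart.

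Expression is given as CPM, the counts brought to the same total in every library after scaling by TMM, which corrects for differences in composition. Control mouse 4 stood apart from the other libraries before any group was compared. On the first principal component, with 45.2% of the variance of log2 CPM, it lay at 101 while the other 7 mice lay between -39.3 and 17.9. Mitochondrial genes took 5.56% of its counts and between 2.01% and 2.85% elsewhere. Total counts were between 16075855 and 26873509. The log2 fold changes of the 10 genes and the counts by direction are therefore also given without it. So are those of named genes of the other gene lists that it moves in sign or by more than 1.5 times.

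Promoters of the genes were searched for CArG-like boxes. A box was taken as CC, then 6 bases of which at most 1 is G or C, then GG, on either strand. This definition was widened by that 1 base after the strict form, with A or T only, had matched no member. RefSeq promoter windows of 250 bases before and 50 after the start were found for 6 of the 10 genes (Acta2, Cnn1, Des, Lmod1, Mylk and Cspg4). Among the 6, Acta2 alone held a match, with 2 of them beginning at -84 and -34 from the RefSeq start. Of all 32851 windows, 9.984% held such a box and 1.629% the strict form. The 2 stretches are shown as the known regulatory sequence type of this gene group, 5′ to 3′ on the minus strand of GRCm38.p6, with the 10 bases of the box in capitals.
Acta2, chr19:34255438-34255467: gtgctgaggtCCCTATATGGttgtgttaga
Acta2, chr19:34255388-34255417: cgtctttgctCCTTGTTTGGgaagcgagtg
The match is a description of the letters. Both stretches lie within a longer first exon of Acta2 in GENCODE M21.

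Acta2 (chromosome 19, 34241090 to 34255336), which encodes smooth muscle α-actin, was at 231, 506, 422 and 163 CPM in control mice 1 to 4. In TTI-101-treated mice 1 to 4 it was at 318, 441, 366 and 224 CPM. Every treated mouse lay within the range of the control mice. Mean expression was 330 ± 160 CPM for the control and 337 ± 90.9 CPM for the treated lungs (SD over 4 mice each), and the log2 fold change was 0.03 (95% interval -0.73 to 0.79, adjusted p = 0.986, quasi-likelihood test of edgeR).

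Myh11 (chromosome 16, 14194535 to 14291372), the heavy chain of smooth muscle myosin, was at 147, 279, 169 and 99.8 CPM in control mice 1 to 4. In TTI-101-treated mice 1 to 4 it was at 186, 291, 182 and 182 CPM. The control mice spread more widely than the treated mice, of which all but mouse 2 lay close together. The log2 fold change was 0.28 (95% interval -0.37 to 0.92, adjusted p = 0.781 from edgeR).

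Mylk (chromosome 16, 34745210 to 35002420), the myosin light chain kinase, was at 345, 299, 257 and 213 CPM in control and at 365, 266, 305 and 337 CPM in TTI-101-treated mice 1 to 4. The groups overlapped, and Mylk varied least among the 10 genes, with its highest mouse 1.71-fold above its lowest. The log2 fold change was 0.19 (95% interval -0.21 to 0.59, adjusted p = 0.752 from edgeR).

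Cnn1 (chromosome 9, 22099216 to 22109630), whose product calponin binds actin and restrains the myosin ATPase, was at 52.7, 166, 179 and 47.5 CPM in control mice 1 to 4. In TTI-101-treated mice 1 to 4 it was at 76.6, 195, 88.2 and 60.9 CPM. High and low mice were present in both groups. Mean expression was 111 ± 71.0 CPM in control and 105 ± 61.1 CPM in treated mice (SD, n = 4 each), and the log2 fold change was -0.08 (95% interval -1.17 to 1.01, adjusted p = 0.970 from edgeR).

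Actg2 (chromosome 6, 83512905 to 83536265), the smooth muscle γ-actin best known from gut, was at 35.1, 89.1, 83.3 and 17.8 CPM in control and at 45.1, 82.2, 43.5 and 31.1 CPM in TTI-101-treated mice 1 to 4. The treated mice lay within the range of the control mice. Its log2 fold change was -0.16 (95% interval -1.19 to 0.87, adjusted p = 0.931 from edgeR). The coding sequences of Acta2 and Actg2 were 83.82% identical over 1131 bases, and their longest shared stretch was 29 bases.

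Des (chromosome 1, 75360329 to 75368579), the intermediate filament desmin of all muscle types, was at 147, 323, 311 and 81.6 CPM in control and at 209, 430, 265 and 150 CPM in TTI-101-treated mice 1 to 4. It had the widest spread of the 10 genes, with its highest mouse 5.26-fold above its lowest. The log2 fold change was 0.29 (95% interval -0.68 to 1.25, adjusted p = 0.849 from edgeR). Desmin is also made by cardiomyocytes, whose genes were present in these lungs, as described further on.

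Lmod1 (chromosome 1, 135324807 to 135368065), the smooth muscle leiomodin that seeds actin filaments, was at 16.8, 36.6, 23.4 and 11.3 CPM in control and at 27.5, 30.6, 28.4 and 15.9 CPM in TTI-101-treated mice 1 to 4. The treated mice again lay within the control range. The log2 fold change was 0.22 (95% interval -0.53 to 0.96, adjusted p = 0.851 from edgeR).

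**Figure D1:**
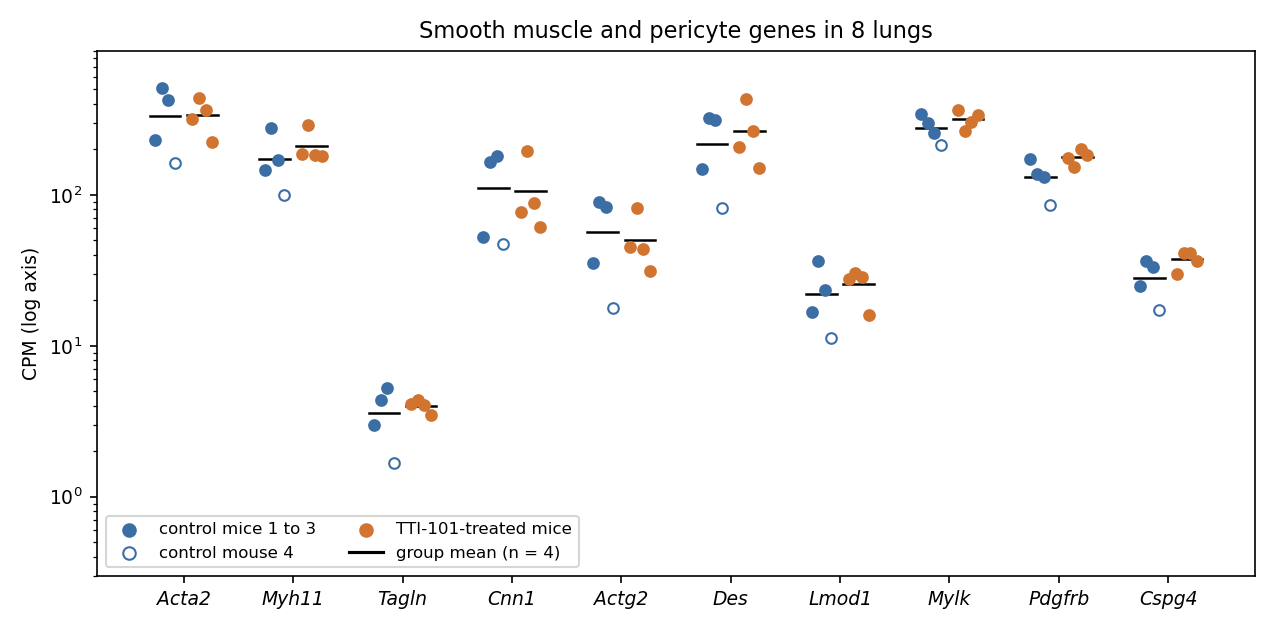
CPM of each gene in each mouse on a log axis, with control mice in blue (mouse 4 as an open circle), TTI-101-treated mice in orange and group means as black lines (n = 4). The groups overlap for every gene, and control mouse 4 is the lowest mouse for every gene.

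Tagln (chromosome 9, 45929619 to 45936058), whose product SM22α (transgelin) binds actin and is among the abundant proteins of smooth muscle, had the lowest values. The counts themselves were 82, 73, 95 and 26 in control and 109, 73, 73 and 57 in TTI-101-treated mice 1 to 4. As CPM it was at 3.01, 4.36, 5.27 and 1.66 in control and at 4.11, 4.38, 4.06 and 3.47 in TTI-101-treated mice. The 4 treated mice were close together and within the control range, with a log2 fold change of 0.16 (95% interval -0.59 to 0.92, adjusted p = 0.897 from edgeR).

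The annotation around Tagln differs from that of the other genes. Of its 1988 exon bases in GENCODE M21, 67.9% are also exons of genes on the opposite strand. The antisense gene Gm48529 (chromosome 9, 45930112 to 45933738) shares 1241 of them and Pcsk7 shares 108. Gm48529 had 112, 76, 79 and 21 counts in control mice 1 to 4 and 101, 41, 80 and 53 in TTI-101-treated mice 1 to 4, close to those of Tagln itself. The shared part was 6.85% for Mylk, 5.86% for Des and 0 for the other 7 genes. The library kit keeps the strand of the RNA, but the strand setting of the counting is not given in the sources used here. Where strand is not used, reads from the shared bases cannot be assigned to 1 gene, so the level of Tagln is uncertain, and the part of the overlap in its low counts was not tested.

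**Figure D2:**
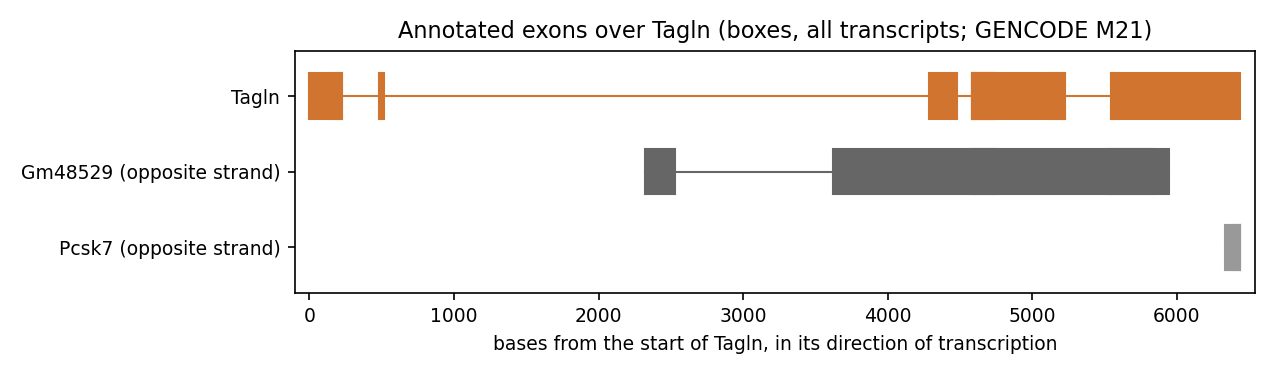
Exons (boxes) of Tagln and of the genes on its opposite strand, as the distance in bases from the start of Tagln. Most of the 3′ exons of Tagln lie under exons of Gm48529, and the end of its last exon lies under Pcsk7.

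Compared per length of the gene, as CPM per kilobase, Acta2 had the highest control level at 186 ± 90.1 (SD, n = 4). Des followed at 57.5 ± 32.0, then Cnn1 at 40.7 ± 25.9 and Actg2 at 36.2 ± 22.7. Mylk (24.7 ± 5.02), Pdgfrb (24.1 ± 6.62) and Myh11 (22.9 ± 9.97) came next. Each neighbour from Des to Myh11 in this order differed from the next by less than the spread between control mice. The levels of Lmod1 (5.58 ± 2.77), Cspg4 (2.34 ± 0.724) and Tagln (1.80 ± 0.794) were lower, and neighbours among these 3 also lay within the summed SDs. These SDs are between mice, whereas all genes were measured in the same mice. They do not decide the order of 2 genes within a mouse, which was not tested.

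Pdgfrb, the PDGF receptor by which pericytes are recruited, was at 174, 138, 131 and 85.5 CPM in control mice 1 to 4. In TTI-101-treated mice 1 to 4 it was at 174, 154, 202 and 185 CPM. Of the treated mice, 3 lay above every control mouse, and all 4 lay above the control mean. For 1 of the 3 this was nearly a tie, with 174.2 CPM in TTI-101-treated mouse 1 and 173.8 CPM in control mouse 1. The means were 132 ± 36.3 CPM in control and 179 ± 19.9 CPM in treated lungs (SD, n = 4 each). The log2 fold change of 0.44 (standard error 0.20, 95% interval -0.01 to 0.88) missed the threshold, with p = 0.0564 before and 0.657 after adjustment in edgeR and p = 0.0571 when the 70 assignments of mice to groups were enumerated (exact permutation, two-sided), for which the smallest possible p is 0.0286. Without control mouse 4 the log2 fold change was 0.29.

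Cspg4 (chromosome 9, 56865033 to 56899870), the NG2 proteoglycan of the pericyte surface, was at 25.0, 36.6, 33.0 and 17.3 CPM in control mice 1 to 4. In TTI-101-treated mice 1 to 4 it was at 29.96, 41.4, 41.3 and 36.7 CPM. As for Pdgfrb, 3 treated mice lay above every control mouse, 1 of them nearly tied (36.67 CPM in TTI-101-treated mouse 4 and 36.64 CPM in control mouse 2). Mean expression was 27.98 ± 8.64 CPM in control and 37.3 ± 5.38 CPM in treated mice (SD, n = 4 each). The log2 fold change of 0.42 (95% interval -0.09 to 0.92) missed the threshold (edgeR adjusted p = 0.657, exact permutation p = 0.114). Without control mouse 4 it was 0.25.

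The endothelial markers of the lung were set beside the pericyte genes. The 8 endothelial genes summed to 2987, 3113, 2774 and 1183 CPM in control and to 3680, 2671, 4419 and 4317 CPM in TTI-101-treated mice 1 to 4. All 8 had a log2 fold change above 0. Of them 2, Vwf and Emcn (0.49, and 0.32 without control mouse 4), passed an unadjusted p of 0.05 in edgeR, and 0 did without that mouse. The lowest sum was again that of control mouse 4. Set against this sum, a step added after the data were seen, Pdgfrb was at 55.5 ± 12.7 CPM per 1000 endothelial CPM in control and 48.3 ± 6.47 in treated lungs (SD, n = 4 each), a log2 difference of -0.18 (exact permutation p = 0.371). Cspg4 was at 11.7 ± 2.56 and 10.4 ± 3.45, a log2 difference of -0.19 (exact permutation p = 0.543). Neither difference passed the test. Control mouse 4 was the top control mouse in both ratios, and without it the log2 differences were -0.045 for Pdgfrb and -0.076 for Cspg4. TTI-101-treated mouse 2, which had the lowest endothelial sum of the treated mice, also had the lowest Pdgfrb of the treated mice. Its Cspg4, in contrast, was the highest of all mice. The part of the endothelial share in the pericyte values was not tested further.

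**Figure D3:**
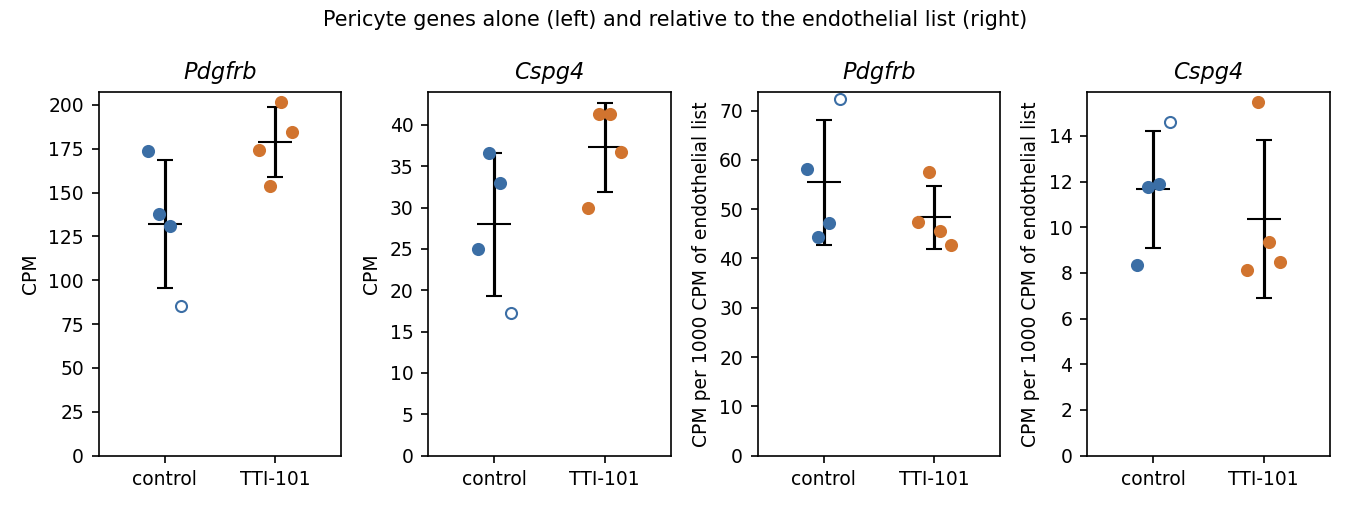
Pdgfrb and Cspg4 in each mouse as CPM (left pair) and as CPM per 1000 CPM of the 8 endothelial genes (right pair), with the mean and SD of each group (n = 4) and control mouse 4 as an open circle. In CPM 3 of 4 treated mice lie above every control mouse, whereas relative to endothelium the groups overlap and control mouse 4 moves from the lowest value to the top of the control group.

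Over the 10 genes, edgeR called 0 at an adjusted p under 0.05, where the background was 0% of the 17138 genes tested. At an unadjusted p under 0.05 it also passed 0 of the 10, against a background of 6.61%. Pdgfrb alone passed that level in DESeq2 (unadjusted p = 0.0483) and in limma-voom (unadjusted p = 0.0414). Over all genes, 1689 passed it in DESeq2 and 1093 in limma-voom, beside 1132 in edgeR. The groups failed to overlap for 0 of the 10 genes, against 2.96% of all genes. A log2 fold change above 0 was found for 8 of the 10, where 50.6% of all genes were above 0. These shares over all genes, with all 8 mice, are also the background for the other gene lists. Without control mouse 4, 6 of the 10 were above 0, and the share over all genes was not taken for that setting. The median log2 fold change of the 8 contractile genes was 0.18 with all mice, beside 0.0034 over all genes tested. Without control mouse 4 it was -0.02, beside 0.017 over all genes. Without that mouse the single values were -0.19 for Acta2, 0.10 for Myh11, -0.06 for Tagln, -0.32 for Cnn1, -0.44 for Actg2, 0.02 for Des, 0.01 for Lmod1 and 0.10 for Mylk. The interval of each gene included 0.

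**Figure D4:**
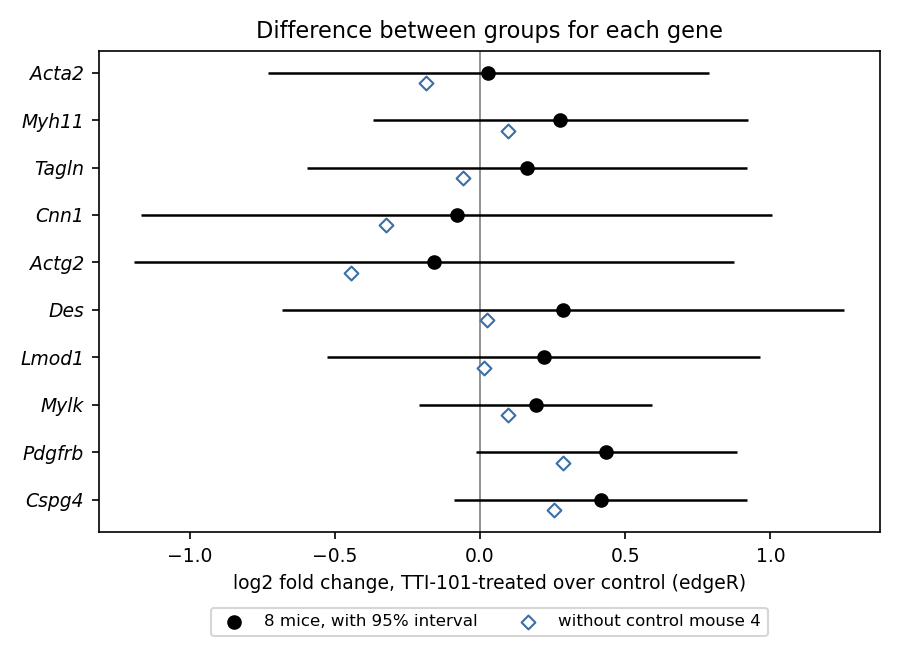
Log2 fold change of each gene, TTI-101-treated over control, with its 95% interval from edgeR (black) and the value without control mouse 4 (open diamonds). Every interval includes 0, and leaving out control mouse 4 lowers the value of each gene.

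All 10 genes were lowest in control mouse 4, which held between 25.7% (Actg2) and 71.0% (Mylk) of the mean of the other control mice. Among the 11017 genes with a mean of at least 10 CPM, 28.1% were lowest in this mouse and 26.3% were highest in it. The highest value fell in TTI-101-treated mouse 2 for 4 genes, in control mouse 2 for 3 and in control mouse 3, TTI-101-treated mouse 1 and TTI-101-treated mouse 3 for 1 each. The fold between the highest and the lowest mouse was 1.71 to 5.26, with a median of 1.72 over genes of at least 10 CPM, of which 13.2% exceeded 3. Without control mouse 4 it was 1.42 for Mylk and 3.71 for Cnn1, the ends of the range.

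Within a mouse the contractile genes kept similar but not constant proportions. Across the 8 mice, the 28 pairs of contractile genes had Pearson correlations of log2 CPM from -0.18 to 0.97 with a median of 0.86, a description over libraries that share control mouse 4. Without that mouse the median was 0.75 over 7 mice. Mylk was the exception, as its correlation with Cnn1 was -0.18 with all mice and -0.88 without control mouse 4. Its correlation with Pdgfrb was 0.85, and 0.65 without that mouse. The CPM of Mylk was 0.914 times that of Myh11 in TTI-101-treated mouse 2 and 2.35 times in control mouse 1. The CPM of Cnn1 was between 0.335 and 1.06 times that of Myh11, and the CPM of Actg2 between 0.109 and 0.198 times that of Acta2. Pdgfrb and Cspg4 had a correlation of 0.70, and of 0.03 without control mouse 4.

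The 10 genes whose log2 CPM over the 8 mice was most like the mean of the contractile genes were Des (r = 0.985), Acta2 (r = 0.984), Pkn3, Map2k7, Zcchc8, Slc5a8, Cenpt, Enho, Cops8 and Actg2 (r = 0.977). Des, Acta2 and Actg2 are part of that mean. The correlations are given as a description over 8 libraries.

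**Figure D5:**
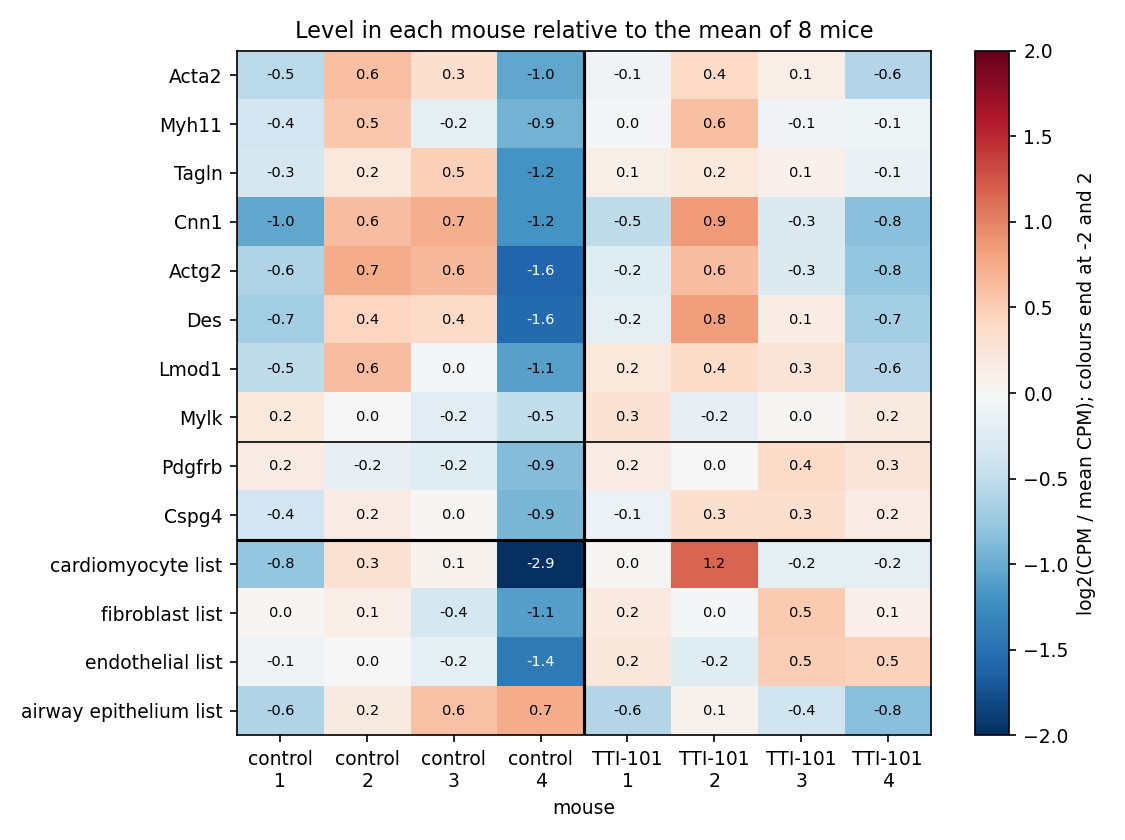
Log2 of each mouse's CPM over the mean of the 8 mice, for the 8 contractile genes, the pericyte genes and the summed CPM of marker lists of other cell types. The column of control mouse 4 is low for all genes and lists but the airway epithelium, and TTI-101-treated mouse 2 is high for Cnn1, Des, Myh11 and the cardiomyocyte list.

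The summed heart muscle genes were lowest in control mouse 4, as each contractile gene was, and highest in TTI-101-treated mouse 2. The 12 cardiomyocyte genes summed to 484, 1024, 870 and 108 CPM in control and to 843, 1858, 730 and 737 CPM in TTI-101-treated mice 1 to 4. In mice, the pulmonary veins carry cardiac muscle into the lung. The most abundant of them, Myh6 (atrial myosin heavy chain), was at 151, 309, 202 and 0.959 CPM in control and at 261, 649, 190 and 276 CPM in treated mice. Nppa (atrial natriuretic peptide), Sln (sarcolipin) and Myoz2 were at 0 counts in control mouse 4. The log2 fold change was 0.79 for Sln (0.39 without that mouse) and 0.87 for Myoz2 (0.47 without it). Ryr2, also on this list, was not low in that mouse, at 12.6, 18.9, 16.2 and 18.0 CPM in control mice 1 to 4. All 12 had a log2 fold change above 0, with a median of 0.81, and all 12 still did without control mouse 4, with a median of 0.45. Beside Nppa, the lowest p values were those of the sarcomere genes Ttn (0.96, and 0.58 without control mouse 4) and Tnnt2 (0.81, and 0.46 without it). For Myh6 the log2 fold change was 1.05, and 0.65 without that mouse. None of the 12 passed an unadjusted p of 0.05 in edgeR. Myh7, a heart muscle myosin gene that is not among the 12, went the other way, at -1.52 (-0.62 without control mouse 4), as described further on. Skeletal muscle genes summed to between 4.99 and 65.0 CPM in control and between 15.4 and 36.9 CPM in treated lungs, and of the 4 tested 1 was above 0 (1 of 6 without control mouse 4). The 65.0 CPM was that of control mouse 1, where Acta1 was at 17.4 CPM (at most 1.43 CPM elsewhere) and Myh4 at 8.03 CPM (0 elsewhere). At an unadjusted p under 0.05 in edgeR, 0 genes of this list passed with all mice and 2 without control mouse 4. Ckm was at 0.55 (0.16 without that mouse), Tnnt3 at -0.20 (-0.50 without it) and Tnni2 at -0.57 (-0.78 without it), with unadjusted p values of 0.469, 0.695 and 0.260 in edgeR. The part of cardiac muscle in the contractile values was not tested.

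The other cell types also differed between mice, and control mouse 4 moved several of their values. The 10 fibroblast genes summed to between 1577 and 3720 CPM in control and between 3303 and 4888 CPM in treated lungs. All 10 were above 0 in log2 fold change, and 9 of 10 without control mouse 4. Their lowest p values were those of Pdgfra (0.73), Inmt (0.67, and 0.39 without that mouse) and Tcf21 (0.63, and 0.34 without it), all above 0.05 before adjustment. Of the endothelial genes named by the same rule, Cdh5 was at 0.79 (0.52 without that mouse) and Kdr at 0.57.

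The 9 airway epithelial genes summed to between 14883 and 37733 CPM in control and between 12565 and 23522 CPM in treated lungs, with control mouse 4 the highest. All 9 were below 0, with and without control mouse 4. The ciliary genes Dnah5 (-1.21), Dnah9 (-1.11) and Ccdc39 (-0.87) and the club cell gene Scgb1a1 (-0.75) passed an unadjusted p of 0.05 in edgeR, and 0 of the 9 did without control mouse 4, where the values of Dnah5, Dnah9 and Ccdc39 were -0.59, -0.53 and -0.58. Of the 8 alveolar epithelial genes, 3 were above and 5 below 0, and 4 were above without that mouse. Lamp3 (-0.52, and -0.34 without it), Sftpb (-0.52, and -0.29 without it), Ager (0.41, and 0.27 without it) and the most abundant, Sftpc (-0.40, and -0.20 without it), did not pass an unadjusted p of 0.05.

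The 8 leukocyte genes were all above 0, and 7 of 8 without control mouse 4. Cd79a, a B cell gene (1.32), passed an unadjusted p of 0.05 in edgeR, while Cd3e (0.80) and Ptprc (0.53) did not pass it with all mice. Of the mesothelial genes, 5 of 6 were above 0, and 6 of 6 without control mouse 4. Wt1 was at 1.00, Upk1b at 0.69 (0.35 without that mouse), Upk3b at 0.58 (0.25 without it) and Krt19 at -0.11 (0.02 without it), all with an unadjusted p above 0.05. All 5 adipocyte genes tested were above 0 with and without that mouse. Adipoq (2.10), Plin1 (2.00), Cfd (1.75) and Cidec (1.09) passed an unadjusted p of 0.05 in edgeR, and 3 genes of this list did without that mouse. Of the 8 airway cartilage genes, Chad (-0.25) and Matn4 (-0.04, and -0.07 without control mouse 4) had enough counts for the test, and the defining markers Col2a1, Acan and Matn1 did not exceed 1.62 CPM in any library. At an unadjusted p under 0.05 in edgeR, 0 cartilage genes passed with all mice, and 1 of the 3 tested without control mouse 4. No gene of these lists passed an adjusted p of 0.05.

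The rest of the contractile apparatus was described by 20 further genes. None passed an adjusted p of 0.05 in edgeR, 17 were above 0 and 3 below (12 of the 20 above 0 without control mouse 4), and the median log2 fold change was 0.13 (0.01 without control mouse 4). At an unadjusted p under 0.05, 1 passed in each direction, and 1 gene in all without control mouse 4. Ppp1r14a, an inhibitor of myosin phosphatase, had 54.6, 58.6, 71.0 and 24.8 CPM in control and 63.9, 75.4, 133 and 81.0 CPM in TTI-101-treated mice 1 to 4, a log2 fold change of 0.76 (unadjusted p = 0.0364, edgeR). Dstn, the actin-severing destrin, had 484, 540, 537 and 604 CPM in control and 459, 462, 403 and 382 CPM in treated mice, so that the groups did not overlap (log2 fold change -0.34, unadjusted p = 0.0407, edgeR). The adjusted p of both was 0.657. Next by p came Itga8, an integrin subunit of mesenchymal cells, at 121 ± 70.6 CPM in control and 205 ± 86.6 CPM in treated lungs (SD, n = 4 each), with a log2 fold change of 0.76 (unadjusted p = 0.117, edgeR). Flna (filamin A) was the most abundant of these genes, at 628 to 863 CPM in control and 663 to 909 CPM in treated lungs. Its log2 fold change was 0.04, and -0.02 without control mouse 4.

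Among the 15 regulators of the smooth muscle program, 11 were above 0 and 4 below (12 above without control mouse 4), and 0 passed an adjusted p of 0.05 in edgeR. At an unadjusted p under 0.05, 3 genes passed in the upward direction and 1 in the downward direction, and without control mouse 4 the total was 2. Notch3, the Notch receptor of vascular smooth muscle and pericytes, was at 109, 100.5, 88.3 and 71.8 CPM in control and at 115, 113, 183 and 156 CPM in TTI-101-treated mice 1 to 4. Every treated mouse lay above every control mouse (log2 fold change 0.62, unadjusted p = 0.00963, adjusted p = 0.657, edgeR). Jag1, a Notch ligand, was at 53.4, 85.5, 85.8 and 123 CPM in control and at 50.9, 58.8, 36.5 and 62.2 CPM in treated mice, with the groups overlapping (log2 fold change -0.74, unadjusted p = 0.0135, edgeR). Foxf1, a forkhead factor of the lung mesenchyme, had a log2 fold change of 0.78 (unadjusted p = 0.0387, edgeR), with the lowest value, 83.9 CPM, in control mouse 4. The factors Srf (log2 fold change 0.12) and Myocd (-0.13) that drive the contractile genes had unadjusted p values of 0.543 and 0.797 in edgeR. Without control mouse 4 the value of Myocd was -0.25. Tgfbr2, a receptor of TGF-β, was the most abundant regulator, at 312 ± 74.0 CPM in control and 378 ± 71.9 CPM in treated lungs (SD, n = 4 each). Myocd was low, at 0.881 to 3.65 CPM over the 8 mice.

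Of 18 genes for contraction signalling, channels and receptors, 14 were above 0 and 4 below, with the same count above 0 without control mouse 4. None passed an adjusted p of 0.05 and 3 passed an unadjusted p under 0.05 in edgeR, all upward, where 1 passed without control mouse 4. Avpr1a, a vasopressin receptor, was at 1.21, 1.14, 0.222 and 0.576 CPM in control and at 1.96, 2.16, 2.56 and 2.13 CPM in TTI-101-treated mice 1 to 4. The groups did not overlap, at a low level (log2 fold change 1.46, unadjusted p = 0.0102, adjusted p = 0.657, edgeR). Ednra, the endothelin receptor of smooth muscle, had a log2 fold change of 0.57 (unadjusted p = 0.0284, edgeR) and Adra1b, an α-adrenergic receptor, one of 1.00 (unadjusted p = 0.0366, edgeR). Rhoa, a small GTPase that favours contraction, was the most abundant, at 275 to 457 CPM in control and 290 to 532 CPM in treated lungs.

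Of 14 further pericyte markers, 11 were above 0 and 3 below (12 above without control mouse 4), with a median log2 fold change of 0.42 (0.25 without control mouse 4). Notch3, also listed above, was the 1 that passed an unadjusted p of 0.05 in edgeR, and 0 passed after adjustment. Mcam, an adhesion molecule shared with smooth muscle and endothelium, had a log2 fold change of 0.49 (unadjusted p = 0.0511, edgeR), and 0.33 without control mouse 4. Vtn (vitronectin) had one of 0.68 (unadjusted p = 0.0659, edgeR), and 0.43 without that mouse. Postn, the matrix protein periostin, was the most abundant of these markers, at 209 ± 77.8 CPM in control and 284 ± 85.2 CPM in treated lungs (SD, n = 4 each), with a log2 fold change of 0.45 and of 0.26 without that mouse. The 3 markers below 0 were Abcc9 (-0.27), Lamc3 (-0.17) and Rgs5 (-0.10). Each was highest in control mouse 4 (27.9, 33.9 and 16.0 CPM), where Pdgfrb and Cspg4 were lowest. Without that mouse they were at -0.13, -0.02 and 0.21. All 5 PDGF ligands and receptors listed besides Pdgfrb were above 0, and 4 of the 5 without control mouse 4. Pdgfb, the ligand by which endothelial cells recruit pericytes, was at 151, 144, 149 and 80.4 CPM in control and at 169, 145, 281 and 182 CPM in TTI-101-treated mice 1 to 4 (log2 fold change 0.56, unadjusted p = 0.0478, adjusted p = 0.657, edgeR). The groups overlapped, and without control mouse 4, 0 of the 5 passed the unadjusted threshold. Pdgfra, the PDGF receptor of fibroblasts and the most abundant of the 5, was at 181 ± 81.3 CPM in control and 300.2 ± 84.8 CPM in treated lungs (SD, n = 4 each; unadjusted p = 0.0540, edgeR). The ligand gene Pdgfd had a log2 fold change of 0.52 (unadjusted p = 0.215, edgeR), and 0.30 without that mouse.

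Markers of airway smooth muscle and myofibroblasts were above 0 for 6 of 8 genes (5 without control mouse 4), and 0 of the 8 passed an unadjusted p of 0.05 in edgeR. The lowest p values were those of Enpp2, which encodes autotaxin (log2 fold change 0.29, unadjusted p = 0.0742), Myh10, a non-muscle myosin (0.58, unadjusted p = 0.114), and Fgf18, a growth factor (0.65, unadjusted p = 0.140), in edgeR. Of the non-muscle and striated actins and myosins, 4 of the 7 tested were above 0 and 3 below, and 4 of 8 were above 0 without control mouse 4. At an unadjusted p under 0.05 in edgeR, 1 gene of this list passed with all mice and 2 without control mouse 4. Actb, the cytoplasmic β-actin, was the most abundant, at 1751 to 2846 CPM over the 8 mice, with a log2 fold change of -0.06. Myh9, a non-muscle myosin, had a log2 fold change of 0.33 (unadjusted p = 0.131, edgeR). Myh7, a myosin heavy chain of slow skeletal muscle and of heart muscle, was at 277 CPM in control mouse 4, at 61.0 to 64.8 CPM in the other control mice and at 23.3 to 53.9 CPM in the treated mice. Every treated mouse lay below every control mouse for this gene, and its log2 fold change was -1.52 (unadjusted p = 0.0123, adjusted p = 0.657, edgeR) with all mice and -0.62 without control mouse 4.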

How the data were processed

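Whole-lung poly(A) RNA of 8 CC-LR mice was sequenced. Per the labels, the submitters' processing notes name STAR, DESeq2 and the build mm10. The authors deposited raw counts per Ensembl gene, whole numbers with no normalization. The counting tool and its strand setting are not given in the sources used here. No column was left out.

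The analysis used R 4.3.3 and edgeR 4.0.16 (filterByExpr with a minimum count of 10, TMM, robust quasi-likelihood F-test, Benjamini-Hochberg over all 17138 genes tested), limma 3.58.1 and DESeq2 1.42.0. Log2 CPM had a prior count of 2. Permutation tests were two-sided and exact over 70 assignments. Group and replicate came from the sample titles, and p-values measure the spread between mice. No 2 libraries of the same group agreed within sampling noise, and libraries of different groups were not compared in this way. Exon overlaps and coding sequences were read from GENCODE M21, whose coordinates match those deposited for 9 of the 10 genes (not Acta2).

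The 10 genes, the gene lists and the tests were chosen with earlier results of these data known. The text names all 10, up to 3 genes of a list with the lowest unadjusted p and its most abundant gene, and the 10 genes most like the contractile mean. A leukocyte gene that this rule selects is not reported here. Other list genes (Srf, Myocd, Sln, Myoz2 and the cartilage markers at low counts) were named for their known role after their values were seen. Abcc9, Lamc3, Rgs5 and Ryr2 were also named after that, for differing from their list in direction or in control mouse 4. Acta1 and Myh4 were named for their values in control mouse 1, likewise after these were seen. As alternatives, the test was replaced by DESeq2 or limma-voom, the scaling by the size factors of DESeq2 or by library totals, and the filter by none or by a minimum of 10 counts in all libraries. A replicate block was added, and each mouse was left out in turn. The lists without control mouse 4 and the ratio to endothelial genes were added after seeing the data. The main edgeR fit, limma-voom and DESeq2 were checked on simulated counts, with larger changes than those of the 10 genes. The simulation set the same spread between mice for every gene, not matched to that of the 10 genes. It therefore cannot tell whether changes of their size would be found. The other settings were not checked in this way.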

Additional observations from a re-analysis of the deposited data

Results flagged for a closer look

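In groups of 4 mice, a value was singled out when its gap to the nearest mouse, as a share of the range of its group, exceeded the 95% critical value of Dixon. Chance alone gives about 1.3 of the 26 groups compared, and 3 were found. Myh11 in TTI-101-treated mouse 2, at 291 CPM with the next mouse at 186 CPM, had a gap of 0.957 of the range. Control mouse 1 had 26873509 counts in total with the next control mouse at 18220467, a gap of 0.830. Mitochondrial genes took 5.56% of the counts of control mouse 4 with the next control mouse at 2.85%, a gap of 0.867. All 10 smooth muscle and pericyte genes were lowest in control mouse 4. The part of the mitochondrial share in their values was not tested.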

How the results depend on the processing

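Over all genes tested, 0 passed an adjusted p of 0.05 in edgeR and 4 in DESeq2's Wald test, and leaving out 1 mouse gave 0 to 1. At an unadjusted p under 0.05 the count was 1132 in edgeR, 1689 in DESeq2, 1093 in limma-voom, 1849 with no filter on low counts and 1298 with the replicate block. With 1 mouse left out it was 422 to 2498. It was 531 without control mouse 4, 2393 without control mouse 1, 1143 without control mouse 2 and 2498 without TTI-101-treated mouse 2. Among the 10 genes, that level was passed by 0 in edgeR, by 1 (Pdgfrb) in DESeq2, limma-voom and edgeR with no filter, by 1 (Cspg4) with the replicate block, and by 0 to 2 with 1 mouse left out (Pdgfrb without control mouse 1 or TTI-101-treated mouse 2, Myh11 and Cspg4 without control mouse 2). None of the 10 passed an adjusted p of 0.05 under any of these settings.

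Of 70 log2 fold changes of the 10 genes recomputed with all 8 mice, 66 kept their sign. The others were Cnn1 (0.025 in limma-voom, 0.035 with the replicate block) and Actg2 (0.024 in both). With 1 mouse left out, 13 of 80 changed sign. The range was -0.55 to 0.25 for Cnn1, -0.48 to 0.16 for Actg2, -0.19 to 0.31 for Acta2, -0.057 to 0.41 for Tagln and -0.044 to 0.55 for Des. The other genes kept their sign, down to 0.01 for Lmod1 without control mouse 4. As the interval of each of the 10 genes included 0 with all mice, none of their directions is settled by these mice. The lowest values of Acta2 and Tagln came without control mouse 4. The cause of these changes was not tested.

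The labels do not say whether the replicate numbers pair the mice, and the main test treated the mice as unpaired. The deviations of same-numbered mice correlated at 0.39, 0.08, 0.16 and 0.07, and not every mouse correlated best with its own number. In both groups mouse 1 had the highest total counts (26873509 in control and 25920509 in TTI-101). These values cannot decide whether same-numbered mice belong together. With the replicate block 1298 genes passed an unadjusted p of 0.05, and 0 passed after adjustment. With 4 mice a group, the spread between mice limits the precision, and Tagln, with 26 to 109 counts a library, also carries a larger counting error.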
